A study of Mus musculus with 18 samples.

Results

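The genes described here are components of the NF-kB pathway and inflammatory genes that it controls in myeloid cells, a list of 42 genes given by name. By role they are 5 NF-kB factors, 5 IkB proteins, 6 feedback inhibitors, 9 receptors and signalling proteins, 6 cytokines and 11 other targets. Each of the 42 had a row in a table of 23899 genes, and 33 of them averaged 1 FPKM or more across all 18 libraries and were tested within the 11550 genes that pass this filter. FPKM is a count of fragments scaled to transcript length and to the size of the library. Relb and Nfkbiz passed only through the guide libraries, since both averaged under 1 FPKM in each control group, so counts over the tested genes describe them and support nothing further.

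The cells were mouse MLL-AF9 leukaemia cells with Cas9, labelled as coming from a primary leukaemia and grown in serum with mouse interleukin-3. MLL-AF9 is the fusion oncoprotein of KMT2A and MLLT3, and all groups share it together with Cas9 and the cytokine. There were 6 groups of 3 libraries: guides named e12.3, e12.4, e20.1 and also e21.1 against Jmjd1c, which encodes a jumonji protein of the H3K9 demethylase family, a guide against Renilla luciferase as control, and mock. The guides were aimed at the jumonji and zinc finger domains, but which guide cuts which domain, what mock received, whether the cells are 1 clone and whether replicate libraries come from separate cultures is not given in the sources used here, so p-values measure the spread between these libraries.

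NF-kB factors are dimers that IkB proteins hold inactive in the cytoplasm. Signals from receptors for TNF, interleukin-1 or microbial products activate the IkB kinases, IkB is degraded, and the dimers enter the nucleus and bind short DNA sites. Their targets include cytokines and survival genes, and also the inhibitors that end the response, such as IkB-alpha and the protein A20. In monocytes and macrophages the pathway is best known for inducing cytokines and for priming the inflammasome.

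Estimated depth was 20.6 to 182 M reads per library, with a median of 31.7 M and mock replicate 1 the deepest. The targeted transcript Jmjd1c was present in every library, at 42.2 to 74.4 FPKM with the 4 guides, 64.2 to 85.4 FPKM with Renilla and 71.8 to 77.1 FPKM in mock, and its difference from Renilla did not pass the test (log2 fold change -0.29, SE 0.13, adjusted p = 0.19). A transcript level does not measure editing. Replicate 3 of both e12.3 and e21.1 stood apart from the other 10 guide libraries: Mpo, the granule enzyme myeloperoxidase, was at 1025 and 664 FPKM in them, at 133 to 384 FPKM in the other 10 and at 1084 to 1376 FPKM in the 6 controls. Where leaving out these libraries changed a call for the 4 guides together, this is stated. Leukaemia markers were present, with Ptprc, Kit, Myb and Hoxa9 among the 7 that passed the filter. Of these 7, Ptprc and Itgam were higher against Renilla and Mpo lower, where 7.77% and 3.21% of all tested genes were. Against mock, Itgam was not called. The sum over the 7 was 710 to 1450 FPKM in guide libraries and 1656 to 1816 FPKM in the 6 controls. Of other markers, 6 of 8 T and B cell, 5 of 6 erythroid and 5 of 6 stromal and endothelial markers were under 1 FPKM in every library.

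Against Renilla, 12 of the 33 tested genes were higher with the 4 guides together and 0 were lower. These were the feedback inhibitors Tnfaip3, Zfp36 and Zc3h12a, the nuclear IkB protein Nfkbiz, the kinase Ripk2, the cytokine Tnf, and the targets Nlrp3, Icam1, Clec4e, Plaur, Bcl2a1b and Bcl2a1d. Of all 11550 genes, 7.77% were higher and 3.21% lower in this comparison. The median log2 fold change was 0.33 over the 33 genes and -0.03 over all genes, and 30 of the 33 values were above 0. Against mock, 13 were higher and 0 lower, with Relb and Nfkbia added and Icam1 missing; here 6.84% of all genes were higher and 2.16% lower, and the median over the 33 genes was 0.25. Both comparisons use the same 12 guide libraries. The list was chosen with earlier results of these data known, so its shares and medians beside those of all genes are a description only. Nfkbiz and, against mock, Relb are counted here though they passed the filter only through the guide libraries.

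By role, calls against Renilla were made for 0 of 5 factors, 1 of 5 IkB proteins, 3 of 5 tested feedback inhibitors, 1 of 7 tested receptors and signalling genes, 1 of 2 tested cytokines and 6 of 9 tested other targets. The differences between these shares were not tested. For 8 of the 33 genes each of the 12 guide libraries lay above each of the 6 control libraries (Nfkbiz, Tnfaip3, Zfp36, Zc3h12a, Ripk2, Nlrp3, Clec4e and Bcl2a1d), and for 0 each lay below; of all tested genes, 4.92% did so upward and 1.59% downward. Nfkbiz, the called IkB protein and 1 of these 8 genes, passed the filter only through the guide libraries. In bulk samples, fewer cells of a type and less RNA per cell cannot be told apart, nor can more cells and more RNA per cell.

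Some markers of maturing myeloid cells were also higher with the guides. Of 14 tested monocyte and macrophage markers, 9 were higher against Renilla and 0 lower, where 7.77% and 3.21% of all tested genes were. Ly6c2, Fcgr1 and Ms4a6c had log2 fold changes below 0 (-0.25, -0.32 and -0.14 against Renilla) and were not called. The sum over the 17 listed monocyte and macrophage genes was 951 to 1506 FPKM in the 12 guide libraries and 929 to 1077 FPKM in the 6 controls, so the ranges overlap. Of 10 tested neutrophil markers, 4 were higher and 0 lower, with sums over 12 genes of 619 to 1438 FPKM in guide libraries and 404 to 496 FPKM in controls. No listed marker of either kind was at 0 in every library, and 2 monocyte and 1 neutrophil markers stayed under 1 FPKM throughout. The part of such cells in the NF-kB results was not tested.

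**Figure D1:**
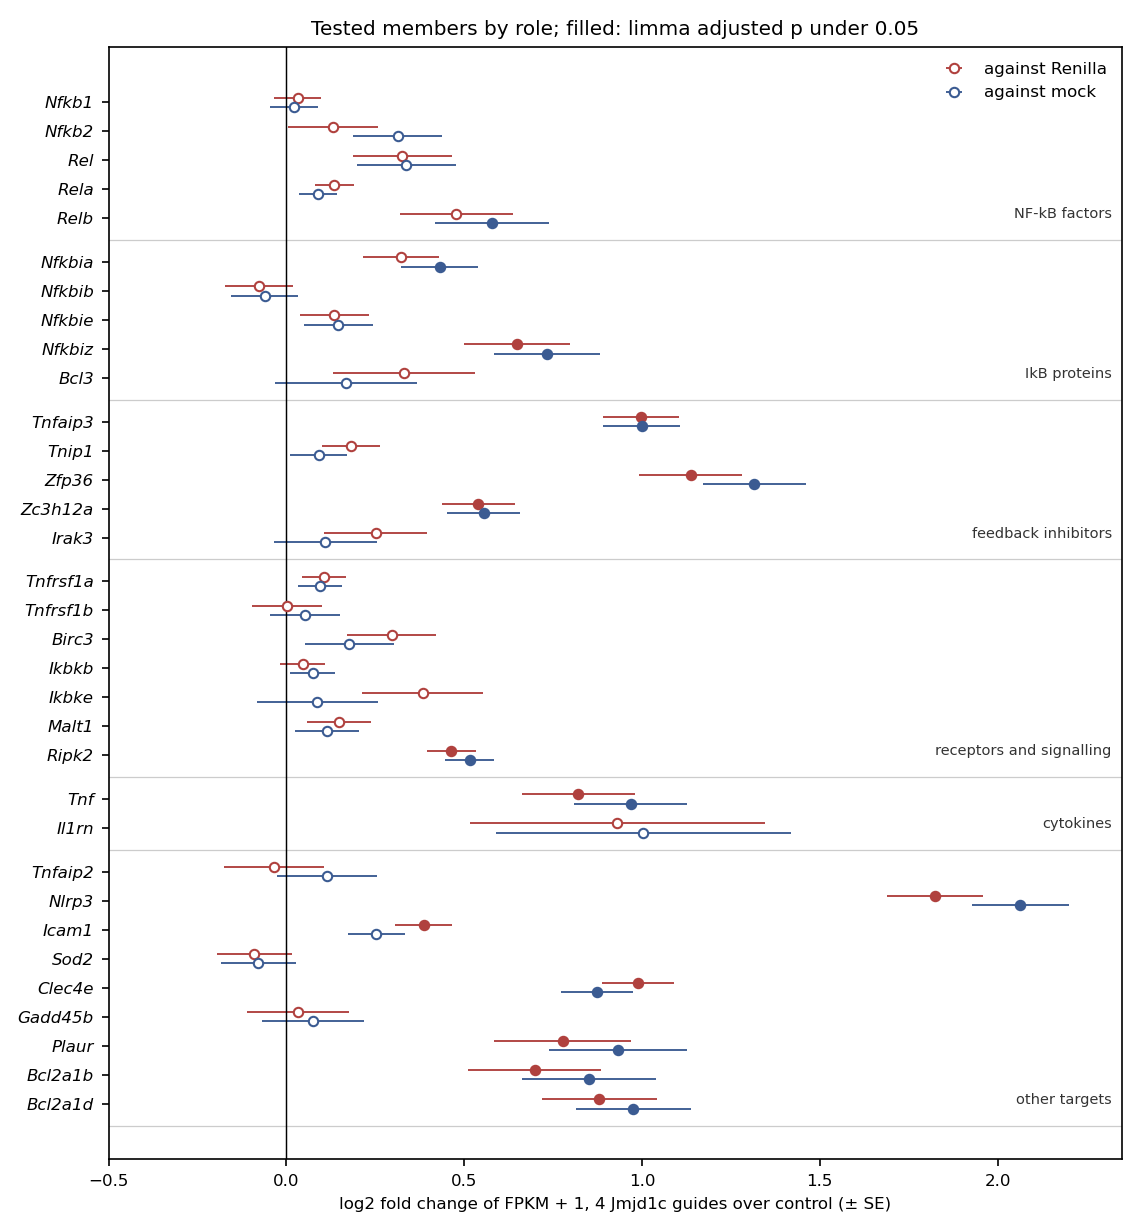
Log2 fold change of FPKM + 1 for the 33 tested genes in blocks by role, the 4 Jmjd1c guides over Renilla (red) and over mock (blue), with bars of 1 standard error; filled points had an adjusted p under 0.05. Points of Nfkb1, Rela, Tnfrsf1b and Ikbkb lie near 0, and Nlrp3 lies farthest right at 1.82 over Renilla and 2.06 over mock.

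The promoters of the 4 genes called against Renilla with the smallest p among those with a RefSeq promoter are shown because they are the called genes of smallest p and their promoters differ in NF-kB-like letters. Each is 250 bases before to 50 bases after the start of the gene, in RefSeq on GRCm38.p6, read along the gene's strand. Capitals mark matches to GGNNTTTCC or GGNNTTCCC on either strand; the 2 motifs can overlap each other. Nlrp3 is at chr11:59541319-59541618 on the plus strand, Clec4e at chr6:123289822-123290121, Tnfaip3 at chr10:19015361-19015660 and Zfp36 at chr7:28379179-28379478, these 3 on the minus strand.
Nlrp3: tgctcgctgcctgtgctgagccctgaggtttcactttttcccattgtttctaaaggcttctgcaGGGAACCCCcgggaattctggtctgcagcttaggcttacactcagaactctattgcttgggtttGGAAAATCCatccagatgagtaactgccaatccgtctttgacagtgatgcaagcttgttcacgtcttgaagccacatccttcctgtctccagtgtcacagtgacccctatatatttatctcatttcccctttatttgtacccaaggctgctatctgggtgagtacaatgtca
Clec4e: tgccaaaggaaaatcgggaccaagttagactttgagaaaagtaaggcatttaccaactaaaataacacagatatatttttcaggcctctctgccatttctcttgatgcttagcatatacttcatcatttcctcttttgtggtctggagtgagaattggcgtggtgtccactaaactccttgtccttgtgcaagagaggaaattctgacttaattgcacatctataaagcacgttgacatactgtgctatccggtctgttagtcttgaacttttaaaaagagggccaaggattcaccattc
Tnfaip3: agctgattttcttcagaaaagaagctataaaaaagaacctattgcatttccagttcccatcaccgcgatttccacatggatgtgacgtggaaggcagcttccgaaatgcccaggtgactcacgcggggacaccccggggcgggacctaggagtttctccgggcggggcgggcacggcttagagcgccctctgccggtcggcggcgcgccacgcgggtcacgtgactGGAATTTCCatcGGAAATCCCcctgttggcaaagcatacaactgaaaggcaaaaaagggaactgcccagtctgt
Zfp36: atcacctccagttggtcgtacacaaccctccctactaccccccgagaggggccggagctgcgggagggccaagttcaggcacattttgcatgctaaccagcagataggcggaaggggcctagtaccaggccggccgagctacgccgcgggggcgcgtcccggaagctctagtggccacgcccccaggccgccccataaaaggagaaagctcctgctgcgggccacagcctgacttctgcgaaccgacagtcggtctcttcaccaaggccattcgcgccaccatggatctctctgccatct
Tnfaip3 has 2 matches, starting 24 and 12 bases before its start, and Nlrp3 has 2, starting 186 and 122 bases before it. Clec4e and Zfp36 have 0 in this window, which says only that these letters are not there. A match is a description and not a shown site of binding. Of the 42 listed genes, 34 had a RefSeq promoter, and 14 of these (41.2%) held a match in the 1 window taken. Of all 32851 RefSeq windows of the same length, in which a gene can have several, 10.9% held a match. The list was chosen as NF-kB components and targets, so these shares are set side by side as a description only. Among the listed genes with a promoter, 3 of 10 called higher against Renilla (30%) and 7 of 17 tested and not called (41.2%) held a match.

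None of the 5 NF-kB factors was called against Renilla, and Nfkb1, Nfkb2 and Rela differed least from it. Nfkb1, which encodes the precursor of p50, averaged 85.5 ± 6.37 FPKM with the guides (SD, n = 12), 83.4 ± 2.27 FPKM with Renilla and 84.0 ± 2.81 FPKM in mock (SD, n = 3 each). Rela, the p65 subunit with the transactivation domain, was at 25.4 to 29.0 FPKM with the guides (median 27.7), at 24.6, 24.6 and 25.7 FPKM with Renilla and at 26.2, 24.8 and 26.5 FPKM in mock. Its log2 fold change against Renilla was 0.14 (SE 0.05, adjusted p = 0.136), and the groups overlap. Nfkb2, the precursor of p52 in the non-canonical pathway, was at 6.24 to 9.80 FPKM with the guides (median 8.76), at 7.14, 6.74 and 8.32 FPKM with Renilla and at 6.20, 5.76 and 7.29 FPKM in mock, a difference of 0.13 from Renilla (SE 0.13, adjusted p = 0.57). Its difference from mock was 0.31 (SE 0.13, adjusted p = 0.158), near that of Rel (0.34, SE 0.14, adjusted p = 0.169).

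Relb and Rel were the factors with the larger differences from Renilla. Relb, the partner of p52, was at 0.909 to 2.57 FPKM with the guides (median 1.88), at 0.986, 1.17 and 0.839 FPKM with Renilla and at 0.878, 0.877 and 0.829 FPKM in mock. In 11 of 12 guide libraries it lay above every control, the exception being e12.3 replicate 3. Relb passed the filter only through the guide libraries, so its values and calls are a description. It was higher against mock (log2 fold change 0.58, SE 0.16, adjusted p = 0.033) and was not called against Renilla (0.48, SE 0.16, adjusted p = 0.0696; 0.021 without e12.3 replicate 3). The mock call was lost without mock replicate 1, 2 or 3 (adjusted p = 0.12, 0.13 and 0.14). Rel, which encodes the c-Rel subunit, was at 1.19 to 2.93 FPKM with the guides (median 2.55), at 1.33, 1.78 and 1.999 FPKM with Renilla and at 1.76, 1.67 and 1.58 FPKM in mock. The values of 1.19 and 1.58 FPKM belong to replicate 3 of both e12.3 and e21.1, and the other 10 guide libraries lay above every control. Rel was not called over all libraries (0.33, SE 0.14, adjusted p = 0.16) and was higher against Renilla without those 2 libraries (0.42, SE 0.09, adjusted p = 0.00514) and without e12.3 replicate 3 alone (adjusted p = 0.046).

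Among the IkB proteins, Nfkbiz was higher against both controls. It passed the filter only through the guide libraries, so its values and calls are a description. Nfkbiz encodes IkB-zeta, a nuclear protein that helps NF-kB to switch on secondary genes such as Il6. It was at 1.39, 1.47 and 2.42 FPKM with e12.3, 2.19, 2.15 and 1.88 FPKM with e12.4, 2.03, 2.69 and 1.91 FPKM with e20.1, and 1.26, 2.49 and 2.83 FPKM with e21.1, against 0.857, 0.976 and 0.951 FPKM with Renilla and 0.707, 0.766 and 0.994 FPKM in mock. The groups do not overlap. The log2 fold change was 0.65 against Renilla (SE 0.15, adjusted p = 0.00969) and 0.73 against mock (SE 0.15, adjusted p = 0.00445); without Renilla replicate 1 the first call was lost (adjusted p = 0.054).

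Nfkbia encodes IkB-alpha, the inhibitor that NF-kB induces to close its own response. It was at 15.1 to 26.9 FPKM with the guides (median 19.9), at 16.4, 15.2 and 14.7 FPKM with Renilla and at 14.6, 13.8 and 14.4 FPKM in mock, and 11 of 12 guide libraries lay above every control. It was higher against mock (0.43, SE 0.11, adjusted p = 0.0177) and missed the threshold against Renilla (0.32, SE 0.11, adjusted p = 0.0673), which it passed without e12.3 replicate 3, e20.1 replicate 1 or e20.1 replicate 2 (adjusted p = 0.038, 0.02 and 0.04). The mock call was lost without mock replicate 1, 2 or 3 (adjusted p = 0.069, 0.10 and 0.081). The other IkB proteins were not called. Bcl3, a nuclear cofactor of p50 and p52, was at 2.85 to 7.504 FPKM with the guides (median 4.27), at 2.18, 3.73 and 4.04 FPKM with Renilla and at 3.14, 3.88 and 4.27 FPKM in mock. Nfkbie, which encodes IkB-epsilon, was at 2.87 to 3.64 FPKM with the guides (median 3.25), at 3.46, 2.56 and 2.66 FPKM with Renilla and at 2.92, 2.40 and 3.26 FPKM in mock. In both the groups overlap. Nfkbib, which encodes IkB-beta, averaged 18.5 ± 1.41 FPKM with the guides, 19.7 ± 3.85 FPKM with Renilla and 19.3 ± 1.02 FPKM in mock.

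The feedback inhibitors Tnfaip3, Zfp36 and Zc3h12a were higher with the guides against both controls, with every guide library above every control. Tnfaip3 encodes A20, a ubiquitin-editing enzyme that shuts off signalling to the IkB kinases. It was at 2.62, 2.86 and 2.51 FPKM with e12.3, 2.85, 3.42 and 3.41 FPKM with e12.4, 2.79, 2.64 and 4.15 FPKM with e20.1, and 3.42, 3.68 and 4.14 FPKM with e21.1, against 1.03, 1.00 and 1.24 FPKM with Renilla and 1.18, 1.13 and 0.955 FPKM in mock. The mean over guides was 2.94 times that of Renilla. On the log2 scale of FPKM + 1, which understates the change of low genes, the fold change was 1.00 against Renilla (SE 0.11, adjusted p = 1.48e-05) and 1.00 against mock (SE 0.11, adjusted p = 1.43e-05).

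Zfp36 encodes tristetraprolin, which binds AU-rich elements of cytokine mRNAs such as that of Tnf and leads to their decay. It was at 18.1, 26.0 and 23.5 FPKM with e12.3, 27.2, 31.2 and 25.0 FPKM with e12.4, 26.9, 34.3 and 29.3 FPKM with e20.1, and 29.6, 32.5 and 45.7 FPKM with e21.1, against 9.93, 13.9 and 13.8 FPKM with Renilla and 8.96, 11.2 and 12.7 FPKM in mock. The lowest guide library thus stood above the highest control, and the guide mean was 2.32 times the Renilla mean. The log2 fold change was 1.14 against Renilla (SE 0.14, adjusted p = 6.64e-05) and 1.32 against mock (SE 0.14, adjusted p = 1.75e-05). Zc3h12a encodes regnase-1, a ribonuclease that cuts inflammatory mRNAs. It was at 6.56 to 9.85 FPKM with the guides (median 7.90), at 5.07, 5.02 and 5.19 FPKM with Renilla and at 4.99, 5.24 and 4.86 FPKM in mock. The control libraries lay within a narrow range below all guide libraries, and the log2 fold change was 0.54 against Renilla (SE 0.10, adjusted p = 0.00238).

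The other feedback inhibitors were not called. Tnip1, an A20-binding protein, was at 28.5 to 36.4 FPKM with the guides (median 31.7), at 28.6, 27.2 and 29.8 FPKM with Renilla and at 30.8, 29.5 and 31.1 FPKM in mock, a difference of 0.18 from Renilla (SE 0.08, adjusted p = 0.178). Irak3, which dampens Toll-like receptor signalling, averaged 14.46 ± 2.77 FPKM with the guides, 11.9 ± 2.13 FPKM with Renilla and 13.1 ± 0.661 FPKM in mock. Tnip3 was below the filter at 0.0255 to 0.572 FPKM with the guides and 0.0117 to 0.109 FPKM in the controls.

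**Figure D2:**
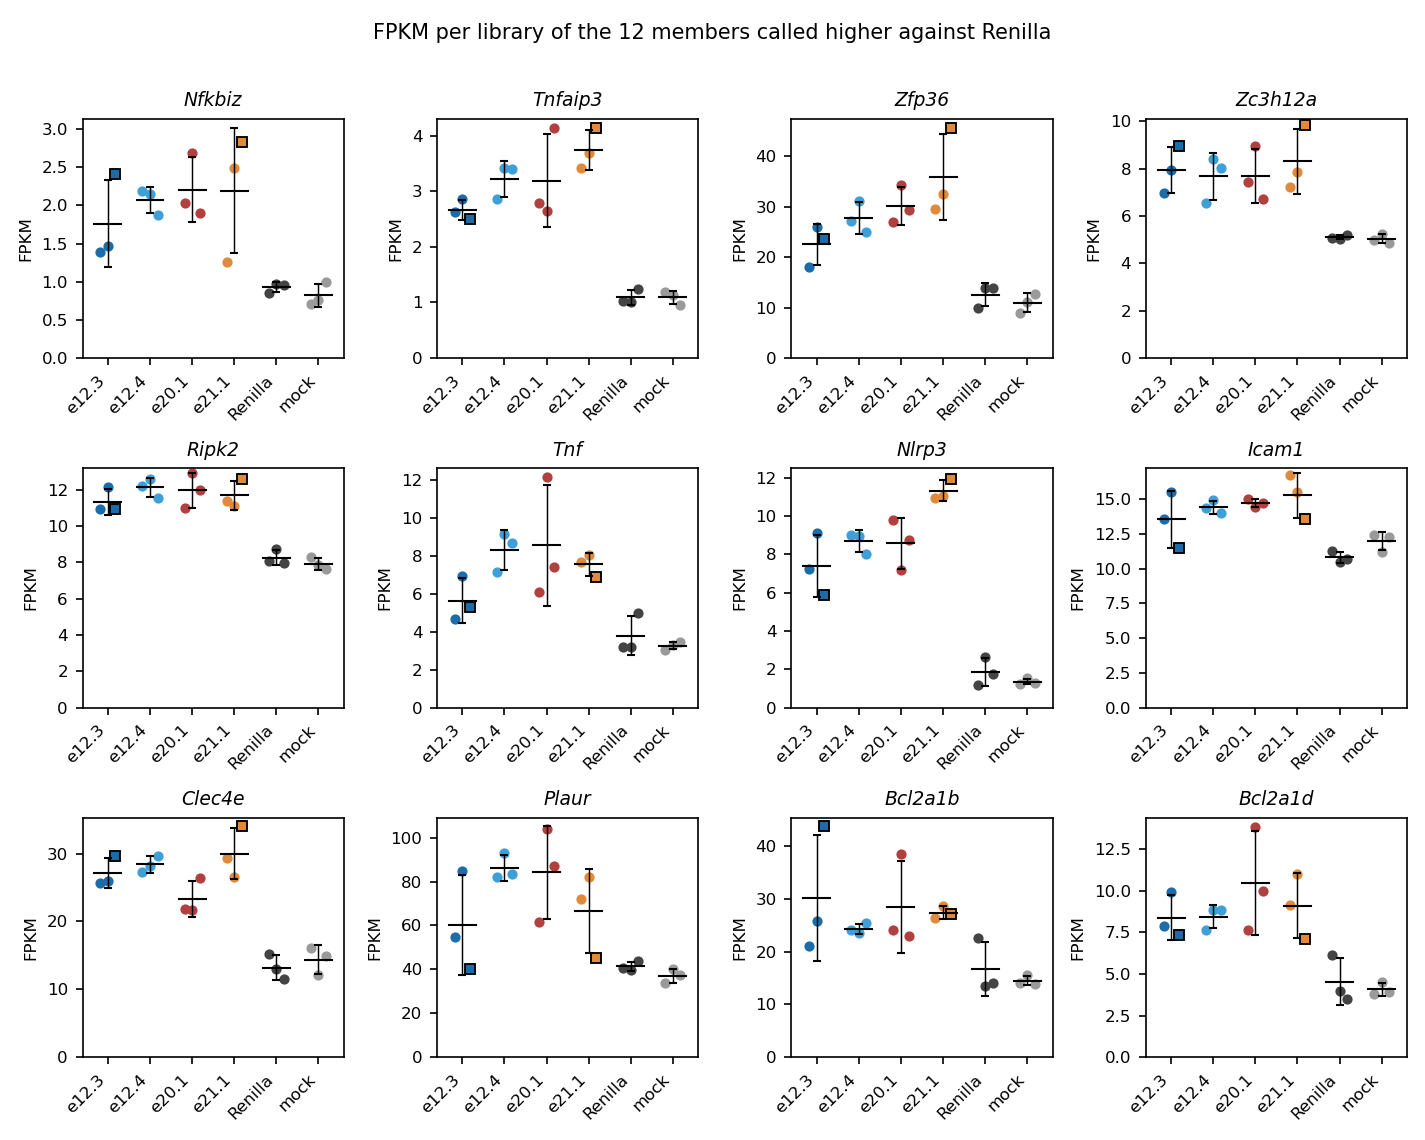
FPKM in each library of the 12 genes that were higher with the 4 Jmjd1c guides than with Renilla; lines are group means, bars are 1 SD (n = 3), and outlined squares mark replicate 3 of both e12.3 and e21.1. Guide libraries of Tnfaip3 sit between 2.51 and 4.15 FPKM and controls between 0.955 and 1.24 FPKM, while Plaur and Icam1 in the marked e12.3 library fall to the level of the controls.

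Of the receptors and signalling genes, Ripk2 was the member that was called. Ripk2 is the kinase through which the intracellular peptidoglycan sensors NOD1 and NOD2 activate NF-kB. It was at 10.9, 12.2 and 10.9 FPKM with e12.3, 12.2, 12.6 and 11.6 FPKM with e12.4, 10.998, 12.9 and 11.97 FPKM with e20.1, and 11.4, 11.1 and 12.6 FPKM with e21.1, against 8.05, 8.73 and 7.98 FPKM with Renilla and 8.29, 7.85 and 7.65 FPKM in mock. The groups do not overlap, and the spread within each is small. The log2 fold change was 0.46 against Renilla (SE 0.07, adjusted p = 0.000282) and 0.52 against mock (SE 0.07, adjusted p = 0.000112).

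The receptors of TNF and the IkB kinases did not pass the test. Tnfrsf1a, the main TNF receptor of most cells, was at 59.99 to 71.8 FPKM with the guides (median 62.4), at 59.0, 56.8 and 60.8 FPKM with Renilla and at 60.6, 57.4 and 60.2 FPKM in mock. Tnfrsf1b, the second TNF receptor, averaged 29.9 ± 3.64 FPKM with the guides, 29.7 ± 2.14 FPKM with Renilla and 28.6 ± 1.81 FPKM in mock. Ikbkb, the catalytic kinase of the canonical pathway, averaged 34.0 ± 1.56 FPKM with the guides, 33.0 ± 3.17 FPKM with Renilla and 32.2 ± 0.878 FPKM in mock. None of these 3 genes was called against either control.

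Ikbke and Birc3 had larger differences from Renilla that also missed the threshold. Ikbke, an IkB kinase relative that is itself induced by NF-kB, was at 23.1 to 52.1 FPKM with the guides (median 32.9), at 21.12, 28.9 and 26.3 FPKM with Renilla and at 28.8, 33.0 and 31.9 FPKM in mock. Its 2 highest values, 46.1 and 52.1 FPKM, were in replicate 3 of both e12.3 and e21.1 (log2 fold change against Renilla 0.38, SE 0.17, adjusted p = 0.177). Without those libraries it was 0.28 against Renilla (SE 0.13, adjusted p = 0.168) and -0.01 against mock (SE 0.13, adjusted p = 0.968). Birc3, a ubiquitin ligase of TNF receptor complexes, was at 24.4 to 36.4 FPKM with the guides (median 30.6), at 18.2, 27.7 and 28.4 FPKM with Renilla and at 23.8, 29.8 and 26.1 FPKM in mock. Renilla replicate 1 was the low library here. Against mock, over all libraries, the log2 fold change was 0.09 for Ikbke (SE 0.17, adjusted p = 0.828) and 0.18 for Birc3 (SE 0.13, adjusted p = 0.473). Malt1, the paracaspase that links antigen and lectin receptors to NF-kB, averaged 10.5 ± 0.873 FPKM with the guides, 9.42 ± 1.24 FPKM with Renilla and 9.62 ± 0.586 FPKM in mock. The co-stimulatory receptor Cd40 and the adaptor Traf1 were below the filter; Cd40 was at 3.06 FPKM in e21.1 replicate 3, at 0.117 to 0.682 FPKM in the other guide libraries and at 0.102 to 0.21 FPKM in the controls.

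Among the cytokines, Tnf, the archetypal product of the pathway, was higher with the guides. It was at 4.65, 6.94 and 5.32 FPKM with e12.3, 7.14, 9.14 and 8.65 FPKM with e12.4, 6.10, 12.1 and 7.42 FPKM with e20.1, and 7.68, 8.05 and 6.89 FPKM with e21.1, against 3.20, 3.17 and 4.96 FPKM with Renilla and 3.05, 3.28 and 3.43 FPKM in mock. Only e12.3 replicate 1 did not lie above every control, being below Renilla replicate 3. The guide mean was 1.99 times the Renilla mean, and the log2 fold change was 0.82 against Renilla (SE 0.16, adjusted p = 0.00281) and 0.97 against mock (SE 0.16, adjusted p = 0.000802).

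Il1rn, which encodes the antagonist of the interleukin-1 receptor, differed within the guides. It was at 14.4, 21.09 and 3.57 FPKM with e12.3, 17.8, 23.8 and 23.9 FPKM with e12.4, 15.5, 18.8 and 22.1 FPKM with e20.1, and 17.2, 21.2 and 3.82 FPKM with e21.1, against 5.29, 8.40 and 8.85 FPKM with Renilla and 6.79, 7.45 and 6.59 FPKM in mock. Replicate 3 of both e12.3 and e21.1 lay below every control and the other 10 guide libraries above every control. Over all libraries Il1rn was not called (log2 fold change against Renilla 0.93, SE 0.41, adjusted p = 0.179), and without those 2 libraries it was higher (1.27, SE 0.16, adjusted p = 5.61e-05), as it was without e12.3 replicate 3 alone or e21.1 replicate 3 alone (adjusted p = 0.038 and 0.036).

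The other 4 cytokines were below the filter. Il1b, the inflammasome substrate interleukin-1 beta, was at 0.408 to 1.88 FPKM with the guides (median 1.03), at 0.0975, 0.188 and 0.0526 FPKM with Renilla and at 0.136, 0.10 and 0.0388 FPKM in mock. The guide libraries all lay above the controls, with an estimated 30 to 101 reads per guide library and 1 to 33 per control. When no filter was used, Il1b was higher against Renilla (0.91, SE 0.13, adjusted p = 0.000696) and against mock (0.94, adjusted p = 0.000599), in fits where 3.82% and 3.35% of 23899 genes were higher; the other 8 genes below the filter were not called in them. Cxcl2, a neutrophil chemokine, was at 0.0574 to 1.85 FPKM with the guides and was listed at 0 in 4 of 6 controls, with 0.0171 FPKM the highest control value. Its highest guide value was in e21.1 replicate 3. Il6 and Il1a stayed at or under 0.118 FPKM in every library.

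The 6 other targets that were called included the largest fitted change among the 33 tested genes. Nlrp3 encodes the sensor of the inflammasome that activates caspase-1, and its transcription is the step that NF-kB primes. It was at 7.22, 9.11 and 5.89 FPKM with e12.3, 9.03, 8.97 and 8.003 FPKM with e12.4, 9.79, 7.17 and 8.76 FPKM with e20.1, and 10.96, 11.03 and 11.9 FPKM with e21.1, against 1.17, 2.61 and 1.74 FPKM with Renilla and 1.24, 1.53 and 1.31 FPKM in mock. The lowest guide library was above the highest control, and the guide mean was 4.89 times the Renilla mean and 6.62 times the mock mean. The log2 fold change was 1.82 against Renilla (SE 0.14, adjusted p = 3.63e-07) and 2.06 against mock (SE 0.14, adjusted p = 1.04e-07).

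Clec4e encodes Mincle, a receptor for mycobacterial glycolipids and for dead cells. It was at 21.7 to 34.1 FPKM with the guides (median 26.9), at 15.1, 13.0 and 11.48 FPKM with Renilla and at 16.1, 12.1 and 14.97 FPKM in mock, without overlap. The log2 fold change was 0.99 against Renilla (SE 0.10, adjusted p = 8.44e-06) and 0.87 against mock (SE 0.10, adjusted p = 2.64e-05). Icam1, the adhesion molecule for leukocyte integrins, was at 11.499 to 16.8 FPKM with the guides (median 14.6), at 11.3, 10.5 and 10.7 FPKM with Renilla and at 12.39, 11.2 and 12.29 FPKM in mock. It was higher against Renilla (0.39, SE 0.08, adjusted p = 0.00498) but not called against mock (0.25, SE 0.08, adjusted p = 0.0652), where e12.3 replicate 3 lay among the mock libraries; it was called there without e12.3 replicate 3 or e21.1 replicate 3 (adjusted p = 0.018 and 0.032).

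Plaur encodes the urokinase receptor of migrating myeloid cells. It averaged 74.2 ± 19.6 FPKM with the guides, 41.4 ± 2.04 FPKM with Renilla and 37.1 ± 3.10 FPKM in mock, and its lowest guide values, 40.3 and 45.3 FPKM, were again in replicate 3 of both e12.3 and e21.1. It was higher against Renilla (0.78, SE 0.19, adjusted p = 0.0155), a call that was lost without Renilla replicate 1 or 2 (adjusted p = 0.071 and 0.073) and without the guide e12.4 (0.070). Without replicate 3 of both e12.3 and e21.1 the log2 fold change of Plaur was 0.90 against Renilla (SE 0.14, adjusted p = 0.00045). Against mock it was then 1.06 (SE 0.14, adjusted p = 0.000119).

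Bcl2a1b and Bcl2a1d encode copies of A1, a survival protein of the BCL2 family that myeloid cells induce through NF-kB. Bcl2a1d was at 7.12 to 13.8 FPKM with the guides (median 8.85), at 6.13, 3.96 and 3.47 FPKM with Renilla and at 3.79, 4.51 and 3.91 FPKM in mock, without overlap (0.88 against Renilla, SE 0.16, adjusted p = 0.00182). Bcl2a1b averaged 27.6 ± 6.72 FPKM with the guides, 16.7 ± 5.09 FPKM with Renilla and 14.51 ± 0.856 FPKM in mock (0.70 against Renilla, SE 0.19, adjusted p = 0.024). The second call was lost without Renilla replicate 2 or 3 (adjusted p = 0.15 and 0.12). The transcripts of these copies are 99.1% identical over 817 aligned bases. That of a further copy, Bcl2a1a, is 98.2% identical to Bcl2a1b and 98.8% to Bcl2a1d. The split of reads between the copies is thus uncertain, and the calls of Bcl2a1b and Bcl2a1d cannot be taken as separate.

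Sod2, Tnfaip2 and Gadd45b, which many cell types induce on NF-kB activation, were not called. Sod2, the mitochondrial superoxide dismutase, averaged 20.12 ± 2.14 FPKM with the guides, 21.5 ± 3.45 FPKM with Renilla and 21.2 ± 1.36 FPKM in mock. Tnfaip2 averaged 49.1 ± 6.26 FPKM with the guides, 51.1 ± 13.7 FPKM with Renilla and 45.1 ± 4.78 FPKM in mock. Gadd45b, a stress-response protein, averaged 31.1 ± 5.01 FPKM with the guides, 30.2 ± 3.82 FPKM with Renilla and 29.3 ± 3.41 FPKM in mock. These differences were smaller than the spread between libraries. Ptgs2, the inducible cyclooxygenase, and the dendritic cell marker Cd83 were below the filter, with highest values of 0.621 and 0.104 FPKM.

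**Figure D3:**
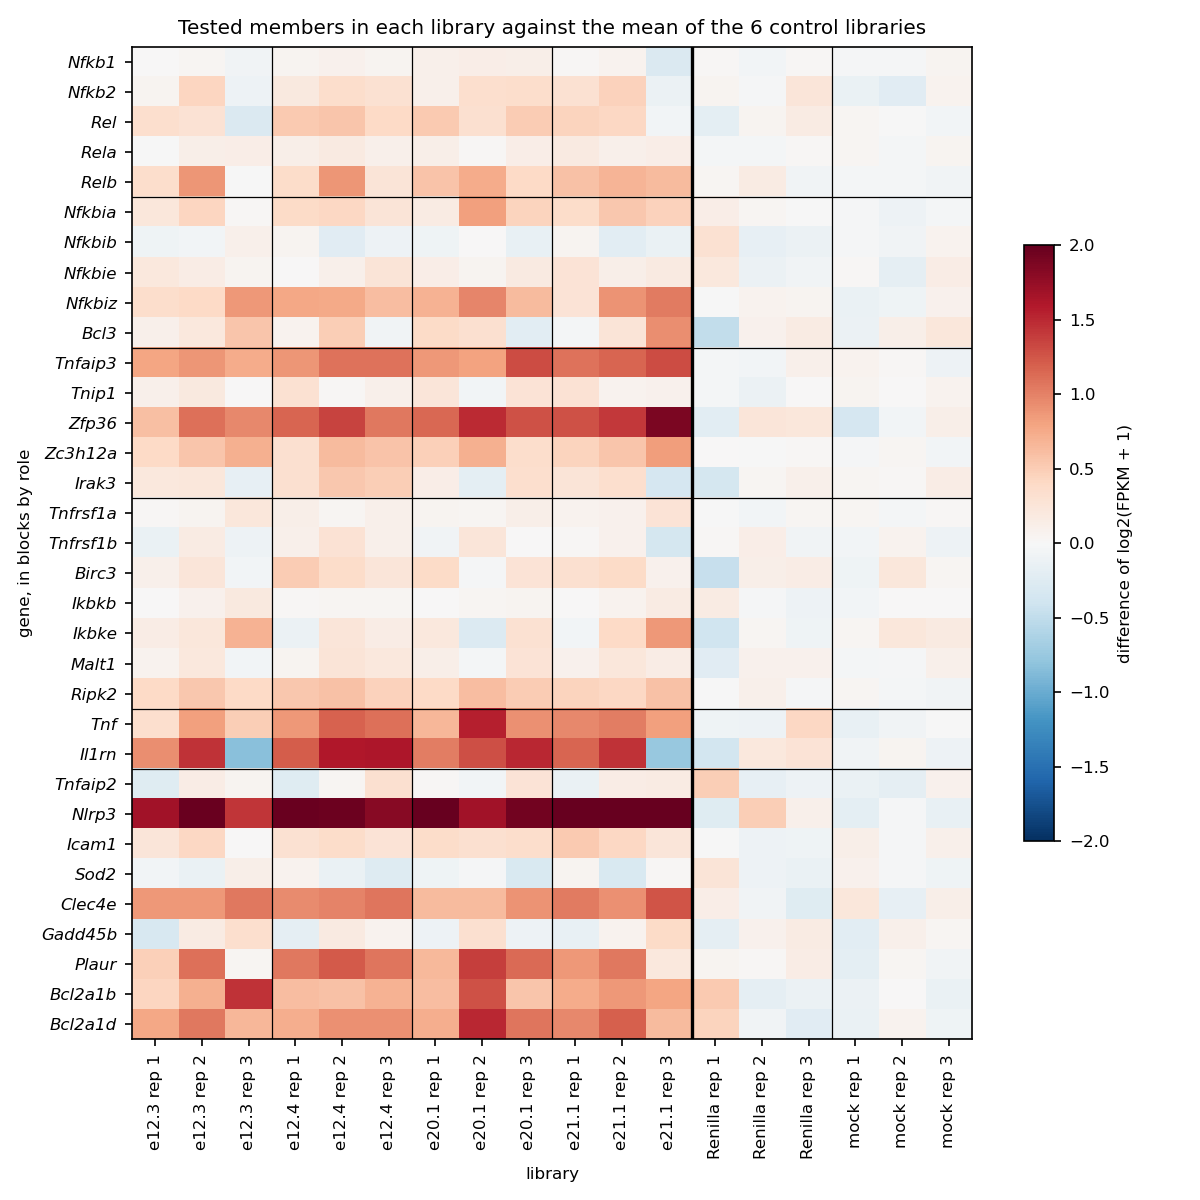
Each of the 33 tested genes (rows, in blocks by role) in each of the 18 libraries (columns, guides left of Renilla and mock), as the difference of log2(FPKM + 1) from the mean of the 6 control libraries; red is higher, blue is lower, and colours saturate at the ends of the scale. Tnfaip3, Zfp36, Nlrp3 and Clec4e are red in all 12 guide libraries, and Il1rn is red in 10 and blue in replicate 3 of both e12.3 and e21.1.

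Taken guide by guide, the calls were made for 7 tested genes with e12.3, 11 with e12.4, 11 with e20.1 and 10 with e21.1 against Renilla, all higher. Of all tested genes, 3.03%, 5.57%, 4.61% and 7.06% were higher in these 4 comparisons and 0.173%, 1.52%, 1.06% and 2.45% lower. Against mock, 8, 10, 12 and 11 genes were higher and 0 lower; of all tested genes 2.82%, 5.22%, 4.41% and 5.91% were higher and 0.121%, 1.26%, 0.909% and 1.35% lower. The 4 comparisons share their control libraries. These counts rest on few libraries: against Renilla they fell to 3 for e12.3 without its replicate 2 and to 4 without Renilla replicate 3, to 6 or 7 for e12.4 without its replicate 2 or 3 or any of the Renilla libraries, and to 7 for e20.1 without its replicate 2 or Renilla replicate 2 or 3. The shares of all tested genes also fell, to 2.11% and 2.13% for e12.3, to between 3.78% and 4.35% for e12.4 and to between 3.1% and 3.91% for e20.1. Against mock the counts fell to 5 for e12.3 without its replicate 2 or any of the mock libraries, and to 7 for e20.1 without its replicate 2 or mock replicate 1, while the shares of all tested genes fell to between 1.47% and 1.77% for e12.3 and to 3.23% and 3.03% for e20.1. Tnfaip3, Zfp36, Zc3h12a, Ripk2, Nlrp3, Clec4e and Bcl2a1d were called with each of the 4 guides against each control. The call of Bcl2a1d with e12.3 against Renilla lay at the threshold (log2 fold change 0.78, SE 0.20, adjusted p = 0.0499). Tnf was not called with e12.3 (log2 fold change against Renilla 0.48, SE 0.20, adjusted p = 0.307).

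Nlrp3 averaged 7.41 ± 1.62, 8.66 ± 0.574, 8.57 ± 1.32 and 11.3 ± 0.548 FPKM with e12.3, e12.4, e20.1 and then e21.1 (SD, n = 3 each). Zfp36 averaged 22.5 ± 4.07, 27.8 ± 3.12, 30.2 ± 3.79 and 35.9 ± 8.56 FPKM in the same order. In both genes e12.3 had the lowest and e21.1 the highest mean. A limma F test of differences among the 4 guides called 0 of the 33 genes and 0% of all tested genes; at an unadjusted p under 0.05 it gave 2 of the 33, Zfp36 and Nlrp3, and 238 of all 11550. Renilla against mock likewise gave 0 calls among the 33 genes and 0% of all tested genes in limma, with 0 of the 33 and 127 of all genes at an unadjusted p under 0.05. The spread in both tests came from all 18 libraries, replicate 3 of both e12.3 and e21.1 among them. The 0 calls therefore do not show that the guides, or the controls, are alike.

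Replicate 3 of both e12.3 and e21.1 parted from the other guide libraries in different directions for different genes. In e12.3 replicate 3, 14 of the 33 genes lay below all of the other 10 guide libraries and 8 above all of them, where 21.8% and 29.2% of all tested genes did so. In e21.1 replicate 3 it was 9 below and 10 above, where 24.6% and 28.8% of all tested genes did so. Nfkb1, Nfkb2, Rel, Il1rn, Icam1, Plaur and Bcl2a1d were below in both libraries, and Bcl3, Tnfrsf1a, Ikbkb, Ikbke and Gadd45b above in both. These are 21.2% and 15.2% of the 33 genes, where 16.2% of all tested genes were below in both and 22.1% above in both. Without these libraries 16 genes were higher against Renilla and 17 against mock, and 11% and 9.95% of all tested genes were higher. The added genes were Rel, Relb, Nfkbia and Il1rn against Renilla, and Nfkb2, Rel, Il1rn and Icam1 against mock. Both libraries were sequenced more deeply than the other guide libraries, at an estimated 66.5 and 75.0 M reads. T and B cell marker sums were 11.3 and 10.4 FPKM in them. These sums were 3.20 to 5.01 FPKM in the other 10 and 5.34 to 6.96 FPKM in the 6 controls. Only 2 of these 8 markers passed the filter. Erythroid sums were lower, 0.734 and 0.368 FPKM against 1.82 to 4.26 FPKM in the other 10. So were stromal and endothelial sums, 2.66 and 2.29 FPKM against 4.04 to 5.05 FPKM. Leukaemia marker sums were 1450 and 1104 FPKM, against 710 to 959 FPKM in the other 10 and 1656 to 1816 FPKM in controls. The part of depth or of other cells in these values was not tested.

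**Figure D4:**
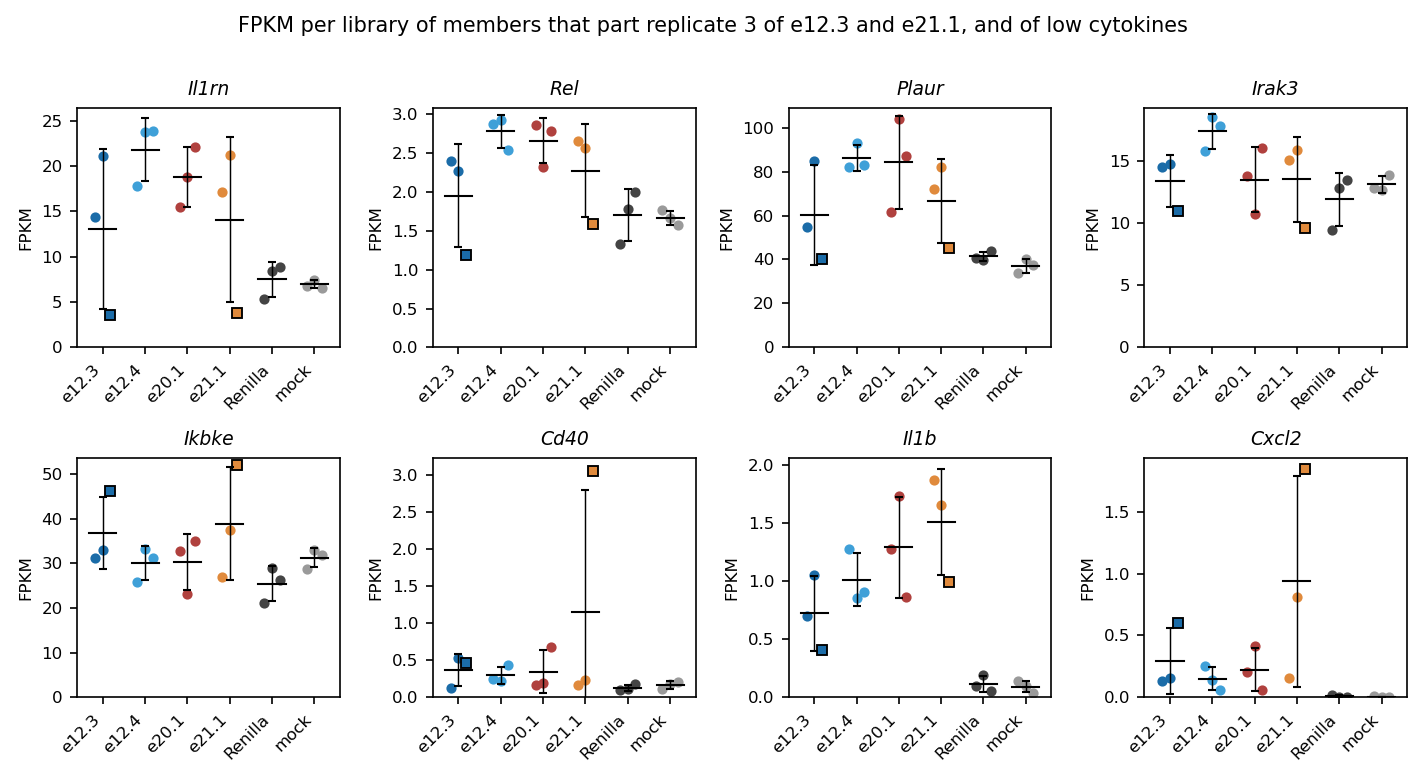
FPKM in each library of 8 listed genes that differ in replicate 3 of both e12.3 and e21.1 (outlined squares) or are low cytokines; lines are group means and bars 1 SD (n = 3). Il1rn is at 3.57 and 3.82 FPKM in the marked libraries and at 14.4 to 23.9 FPKM in the other guide libraries, while Ikbke is highest in the marked libraries.

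Other genes of the pathway were 44 signalling components outside the list. Of the 41 tested, 3 were higher and 0 lower, against Renilla and against mock alike; 7.32% of them were higher, near the 7.77% and 6.84% of all tested genes. Card19, a mitochondrial protein with a caspase recruitment domain, was at 31.2 to 61.7 FPKM with the guides (median 37.7), at 17.2, 21.6 and 20.06 FPKM with Renilla and at 20.3, 21.7 and 18.2 FPKM in mock (log2 fold change against Renilla 0.95, SE 0.13, adjusted p = 0.000117). Myd88, the adaptor of Toll-like and interleukin-1 receptors, was at 29.2 to 36.5 FPKM with the guides (median 34.3), at 26.6, 25.1 and 25.1 FPKM with Renilla and at 24.3, 24.9 and 25.6 FPKM in mock (0.38, SE 0.07, adjusted p = 0.000907). Map3k14, the NIK kinase of the non-canonical pathway, was at 2.77 to 4.67 FPKM with the guides (median 3.58), at 1.95, 2.33 and 2.30 FPKM with Renilla and at 1.79, 2.36 and 2.38 FPKM in mock (0.55, SE 0.11, adjusted p = 0.00448). In all 3 genes the guide libraries lay above every control. The median log2 fold change over the 41 genes was 0.03 against Renilla.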

How the data were processed

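Values are FPKM that the authors computed and deposited, in a table of 23899 genes by 18 libraries; 15 separate tables hold the same values to within 3.3e-06. The submitters' processing notes name bcl2fastq 2.22.0.422, Salmon 0.13.0, R 3.5.3, DESeq2 1.22.1 and mm10, with no role or order. Per the labels' protocols, total RNA was taken with TRIzol and poly(A) libraries were made with a directional kit. How reads of near-identical genes were shared is not given in the sources used here.

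FPKM are not counts, so limma-trend was run on log2(FPKM + 1) with limma 3.58.1 under R 4.3.3, fitting the 6 group means to genes that average 1 FPKM or more, with Benjamini-Hochberg adjustment over all 11550 and a threshold of 0.05. Each guide has equal weight in the comparison of the 4 guides. Members and lists were chosen with earlier results of these data known. Up to 4 genes per role with the smallest p against Renilla have values per library (Plaur, Bcl2a1b and the rest have means), and up to 6 called genes of the other pathway genes are named; Cd40, Il1b and Cxcl2 values were picked after they were seen.

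Depth was estimated from FPKM steps in 1480 genes that have 1 annotated transcript, 2000 bases or longer: 79.6 to 84.6% of low values lay within 0.1 of a whole read, where an even spread gives 20%. That is not close enough to recover counts, so read numbers are estimates. Gene symbols were matched to GENCODE vM21 (99.03%). Tables and figures used Python 3.11.15, numpy 2.4.6, pandas 2.3.3 and matplotlib 3.10.9.

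Alternatives were a pseudocount of 0.1, no filter, at least 5 FPKM in at least 3 libraries, only the groups compared, the replicate number as a block, upper-quartile scaling, both controls together, and leaving out each library, each guide, or replicate 3 of both e12.3 and e21.1.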

Additional observations from a re-analysis of the deposited data

How the results depend on the processing

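For the 4 guides together, of 985 values of single genes against Renilla under the alternatives, 956 kept their side of the threshold, 8 lost the call, 21 gained it and 0 reversed; against mock 928 of 952 kept it, 11 lost it, 13 gained it and 0 reversed. Counts of genes called higher were 12 against Renilla and 13 against mock; with a single library left out they ran from 10 to 16 and from 10 to 16. For single guides with a library left out they ran from 3 to 7 (e12.3), 6 to 13 (e12.4), 7 to 12 (e20.1) and 7 to 12 (e21.1) against Renilla, and from 5 to 9, 7 to 13, 7 to 13 and 8 to 14 against mock. With only the groups compared in the model, single guides gave 2 (e12.3), 7 (e20.1) and 4 (e21.1) against Renilla, and 2 (e12.3) and 17 (e12.4) against mock; of all tested genes 0.667%, 3.38% and 2.7%, and 0.736% and 11.4%, were then higher, with the spread estimated from 6 libraries. With no filter e12.3 gave 4 against Renilla and 5 against mock (1.23% and 1.05% of all genes). Leaving out replicate 3 of both e12.3 and e21.1, the guide e21.1 gave 17 against mock (7.06% of all genes), and of the other pathway genes Irak2 was also higher (log2 fold change 0.37, adjusted p = 0.0351) and Nkrf lower (-0.24, adjusted p = 0.00925) against Renilla. Relb against mock also lost its call with no filter (adjusted p = 0.059), with only the groups compared (0.052), and without the guide e20.1 (0.059) or e21.1 (0.080). Bcl2a1b lost its call against Renilla with no filter (0.052) and without e21.1 (0.052), and against mock without mock replicate 3 (0.055). Upper-quartile scaling and a pseudocount of 0.1 left the counts for the 4 guides together at 12 and 13.

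The labels do not say that the replicate numbers pair samples, and not every same-number pair correlated above 0.1: over 45 pairs of libraries with the same number in different groups, deviations from the group means correlated from -0.25 to 0.76 (median 0.12, against -0.04 over 90 pairs with different numbers), and 26 exceeded 0.1. As a hint from the data, 17 of 18 libraries correlated best with one of their own number. With the replicate block, 14 genes were higher against Renilla and 14 against mock, beside 9.85% and 8.46% of all tested genes; Relb (adjusted p = 0.019) and Nfkbia (0.038) were added against Renilla and Icam1 (0.039) against mock, and of the other pathway genes Tnfrsf13b was also higher (log2 fold change 0.18, adjusted p = 0.0365) and Nkrf lower (-0.33, adjusted p = 0.0487) against Renilla. Depth limits the low genes most: at the shallowest library 1 FPKM of a transcript of 2 kilobases stands for about 41 reads.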
